A study of Sus scrofa domesticus with 30 samples.

Results

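The set described here holds genes of cholesterol synthesis and lipid handling, chosen by symbol from a list of 30 gene names that was drawn up with earlier results of these data known. Of the 30, 27 had an entry under their symbol in the mRNA table of 15 endometrium libraries. All 27 lay above the table's floor value of 1 in at least 7 libraries, and they are 27 of the 16819 genes tested. LSS, IDI1 and CYP51A1 had no entry under those symbols and were not analysed here. CYP51, for which the RefSeq gene table lists CYP51A1 as a synonym, is given beside the set and is left out of its counts.

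Cells build cholesterol from acetyl units through mevalonate, squalene and lanosterol, and sterol in the endoplasmic reticulum holds this pathway back. SCAP carries the transcription factors encoded by SREBF1 and SREBF2 to the Golgi for activation when sterol is low, and INSIG1 retains SCAP when sterol is high. Loaded cells pass cholesterol on to lipoproteins through ABCA1 and ABCG1. In the uterus, glands and surface epithelium draw on the same lipids for membranes, secretions and precursors of signalling molecules.

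The low iCrit group (7 gilts) and the high iCrit group (8 gilts) were set apart by their immunocrit on the first day of life. Immunocrit is the packed fraction of immunoglobulin precipitated from serum, and it serves as an index of how much colostrum a piglet absorbed. All were crossbred gilts (young female pigs; Landrace, Yorkshire and Duroc breeds in the labels). They entered the breeding area at 170 days of age, cycled normally at least once, were bred by artificial insemination and gave tissue from mid-horn on pregnancy day 13. The age at slaughter, the litter and the sire are not in the labels, and a non-pregnant low iCrit gilt had been removed from the study. The question is whether endometrium of low iCrit gilts differs from that of high iCrit gilts in adulthood.

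Each gilt gave 1 poly(A) mRNA library, sequenced as paired 50 bp reads from RNA whose integrity number was 7.5 or more. The estimated depth was 41.3 ± 13.2 M reads (M, 1e6) in low iCrit and 34.6 ± 5.24 M in high iCrit gilts (n = 7 and 8, SD; two-sided exact permutation p = 0.221), with a range of 23.6 to 63.5 M. Values below are the authors' normalized values, on their own linear scale, with no transcript length taken into account. A level can therefore be compared between gilts, not between genes. All 7 defining markers of endometrium were above the filter, among them ESR1 at 6815 ± 941 in low iCrit and 7063 ± 2839 in high iCrit gilts. Low iCrit replicate 2, high iCrit replicate 7, which had the lowest depth, and high iCrit replicate 8 are left out together in 1 alternative, a choice taken over from an earlier analysis of these data and not derived here. Low iCrit replicate 6, which had by far the highest summed stromal and smooth muscle markers and the highest summed endothelial markers, is not among these 3. Values without it are given for some of the genes, not for all that moved. Differences are log2(value + 1), low minus high iCrit, from limma fitted on all tested genes, and a call needed a Benjamini-Hochberg adjusted p under 0.05.

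Most genes of the set had lower mean values in low iCrit endometrium, and none was called. The log2 difference was below 0 for 21 of the 27 genes (77.8%), against 51.7% of all tested genes, and the median difference was -0.221 against -0.01. limma called 0 of the 27, with 0% called among the 16819 tested. The smallest adjusted p in the set was 0.672. At an unadjusted p under 0.05, 6 genes were lower (MVK, MVD, SQLE, NSDHL, EBP and NPC2), where 4.43% of all tested genes were lower at that level. None of the 27 was higher at that level, against 2.71% of all tested genes. The groups overlapped for every one of the 27, and 0.0713% of all tested genes had groups that did not overlap.

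**Figure D1:**
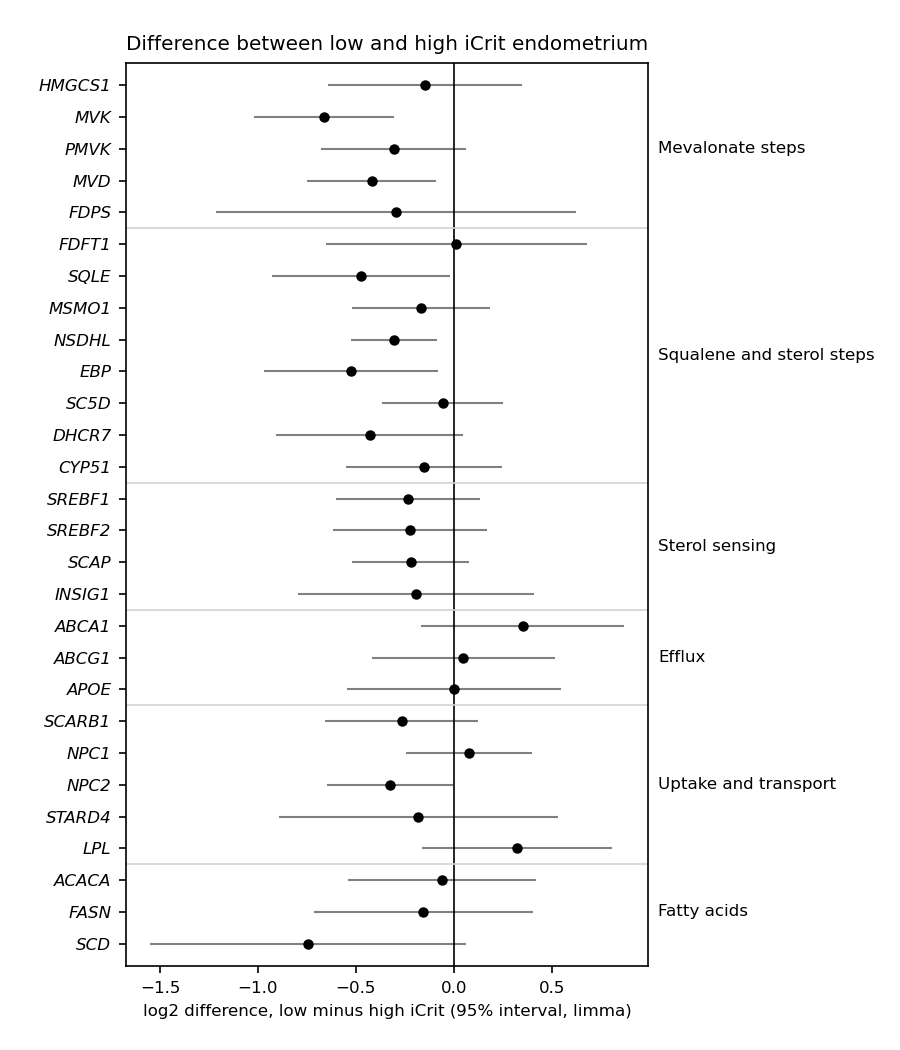
Log2 difference between low and high iCrit endometrium (horizontal axis, low minus high) for the 27 genes and CYP51, ordered by role. Points are limma estimates from 7 low and 8 high iCrit gilts and bars their 95% intervals. The mevalonate, sterol and sensing genes other than FDFT1 lie left of 0, and the 3 efflux genes lie at or right of it.

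The 6 genes of the mevalonate branch begin with HMGCS1, which condenses acetyl units into the precursor of mevalonate, and end with FDPS, which makes farnesyl diphosphate. IDI1 was the one without an entry, and all of the other 5 had a lower mean log2 value in low iCrit gilts (median difference -0.306). MVK, which phosphorylates mevalonate (chromosome 14, 41320790 to 41357437, minus strand, Sscrofa11.1), stood out with the smallest p of the whole set. Its value ran from 248.2 through a median of 371.5 to 476.5 in low iCrit gilts, and from 375.4 through 560.3 to 795.4 in high iCrit gilts. Of the 7 low iCrit gilts, 4 lay below the lowest high iCrit gilt, and 6 of the 8 high iCrit gilts lay above the highest low iCrit gilt, so the groups overlapped only in the middle.

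The mean of MVK was 356.7 ± 72.04 in low iCrit and 568.2 ± 129 in high iCrit gilts (n = 7 and 8, SD). Its log2 difference was -0.66 ± 0.17 (SE; 95% interval -1.02 to -0.31), with an unadjusted p of 0.00109 and an adjusted p of 0.672 by limma. An exact two-sided permutation of this gene alone, over all 6435 splits of the animals, gave p = 0.00202, not adjusted for the number of genes. All 7 low iCrit gilts lay below the high iCrit mean.

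MVD, which decarboxylates diphosphomevalonate to the isoprenoid unit, ran from 932.1 through 1100 to 1285 in low iCrit gilts and from 1135 through 1391 to 2643 in high iCrit gilts. The highest value belonged to high iCrit replicate 7, and the next highest high iCrit gilt had 1729. The log2 difference was -0.42 ± 0.16 (SE), unadjusted p = 0.0161 and adjusted p = 0.672 by limma, and it was -0.30 without high iCrit replicate 7. PMVK, the kinase between MVK and MVD, had the same animal at the top with 2518, and its values were 1171 ± 231 in low iCrit and 1483 ± 476 in high iCrit gilts (n = 7 and 8, SD). Its log2 difference of -0.31 had an unadjusted p of 0.0985 by limma. This was -0.19 without high iCrit replicate 7 and -0.39 without low iCrit replicate 6. HMGCS1 differed by -0.15, with a 95% interval of -0.64 to 0.35, so at this number of gilts neither direction was shown.

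FDPS (chromosome 4, 94500140 to 94514820, minus strand) varied most among the 27. Its lowest value, 3532 in low iCrit replicate 2, and its highest, 52116 in high iCrit replicate 7, were 14.8-fold apart. The SD of its log2 values over the 15 gilts was 0.91, above that of 88.1% of all tested genes, for which the median SD was 0.398. The group difference of -0.30 had a 95% interval of -1.21 to 0.62, and its sign turned to 0.11 without low iCrit replicate 2. PMVK lies on the same chromosome (94861500 to 94913743, plus strand), yet the 2 genes did not follow each other across gilts beyond the test (r = 0.288 over 15 gilts, adjusted p = 0.521 by permutation).

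**Figure D2:**
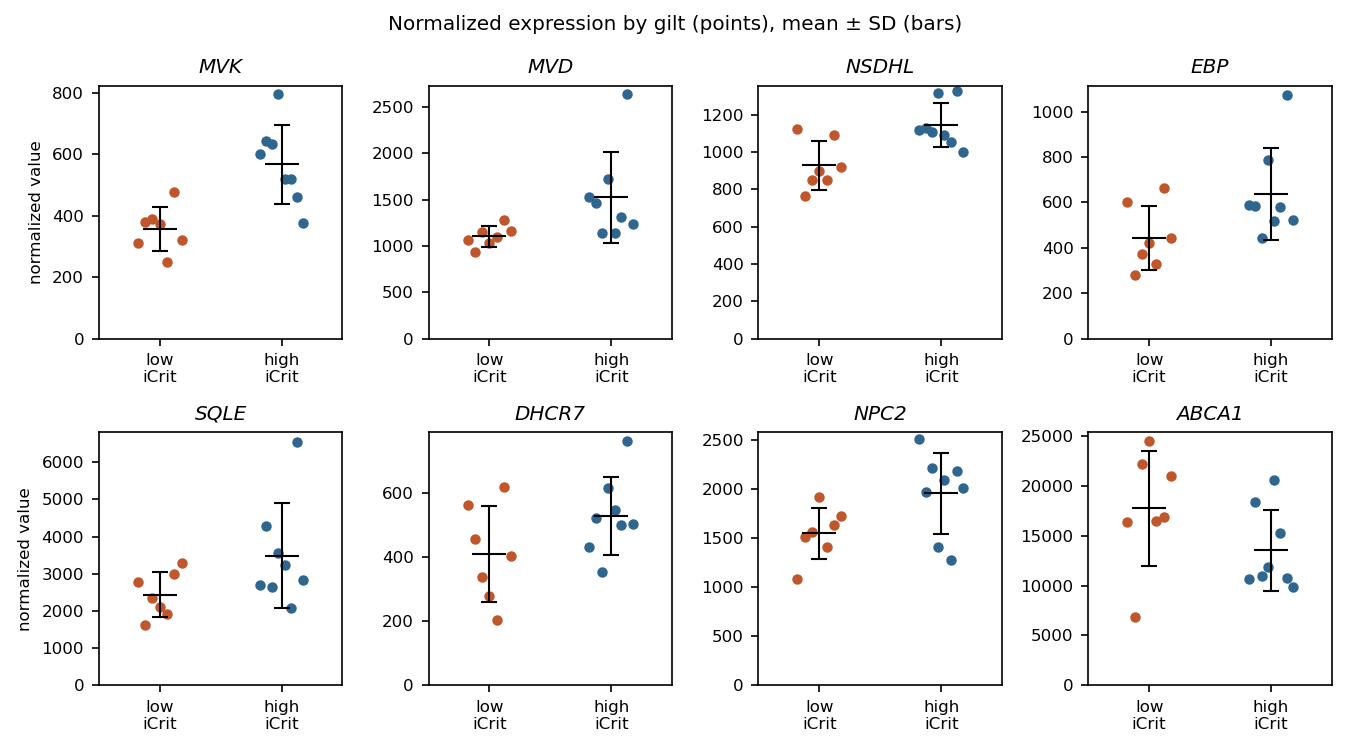
Normalized value (vertical axis, the authors' linear scale from 0) of 8 genes in each low iCrit gilt and each high iCrit gilt. Points are gilts and bars the mean ± SD of 7 low and 8 high iCrit gilts. MVK shows the least overlap, the high points of MVD, SQLE and EBP are high iCrit replicate 7, and ABCA1 runs in the other direction.

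The sterol branch turns farnesyl diphosphate into squalene, lanosterol and cholesterol. Of its 7 genes with an entry, 6 were lower in low iCrit gilts (median difference -0.305), and NSDHL, EBP and SQLE were lower at an unadjusted p under 0.05. NSDHL, which removes the C4 carboxyl group during demethylation of sterols (chromosome X, 123906130 to 123921935, plus strand), was the steadiest gene of the set, with an SD over all gilts of 0.23. It ran from 761.7 through 899.8 to 1124 in low iCrit gilts and from 998.7 through 1112 to 1325 in high iCrit gilts. Low iCrit replicates 1 and 6 lay among the high iCrit gilts and the other low iCrit gilts below them.

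The mean of NSDHL was 927.6 ± 133 in low iCrit and 1141 ± 118 in high iCrit gilts (n = 7 and 8, SD). On the log2 scale this was a difference of -0.30 ± 0.10 (SE), with an unadjusted p of 0.00902 and an adjusted p of 0.672 by limma, and an exact permutation p of 0.00637. EBP, the sterol isomerase that shifts the double bond of the B ring (chromosome X, 42670592 to 42678571, plus strand), ran from 279.8 through 419.8 to 664.6 in low iCrit gilts and from 443.3 through 581.3 to 1073 in high iCrit gilts. Low iCrit replicates 1 and 6 again reached the middle of the high iCrit range, and low iCrit replicate 7 its bottom. The log2 difference was -0.53 ± 0.21 (SE), adjusted p = 0.672 by limma. Leaving out high iCrit replicate 7 brought it to -0.41, and leaving out low iCrit replicate 6 to -0.63.

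SQLE, the epoxidase that acts on squalene before ring closure (chromosome 4, 14669789 to 14700152, minus strand), ran from 1624 through 2336 to 3294 in low iCrit gilts. In high iCrit gilts it ran from 2066 through 3025 to 6555, the last again in high iCrit replicate 7. Apart from that animal and high iCrit replicate 2 at 4290, the high iCrit gilts lay between 2066 and 3569, a range they shared with 5 of the 7 low iCrit gilts. limma gave a log2 difference of -0.47 ± 0.22 (SE) with an unadjusted p of 0.0426, and the exact permutation of the gene alone gave 0.0598. DHCR7, which makes cholesterol from 7-dehydrocholesterol, had 409 ± 150 in low iCrit and 529.6 ± 121 in high iCrit gilts (n = 7 and 8, SD), a log2 difference of -0.43 ± 0.23 (SE) with an unadjusted p of 0.0737 by limma. Without low iCrit replicate 5 it was -0.28, and without low iCrit replicate 6 it was -0.54.

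The remaining genes of this branch differed less. MSMO1, which oxidizes the C4 methyl groups, differed by -0.17 (95% interval -0.52 to 0.18), and CYP51, the lanosterol demethylase, by -0.15 (-0.55 to 0.24). SC5D, which introduces a double bond of the B ring, differed by -0.06 (-0.37 to 0.25). FDFT1, the squalene synthase (chromosome 14, 14976259 to 15010701, plus strand), was the only gene of the 7 without a lower mean log2 value, at 0.01 (-0.65 to 0.68). Its level was 4436 in low iCrit replicate 2 and 17590 to 24680 in the other low iCrit gilts, against 9134 to 25180 in high iCrit gilts. Without low iCrit replicate 2 the FDFT1 difference was 0.33.

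Within the animals, the 12 synthesis enzymes of the set were unevenly spread. High iCrit replicate 7 had the highest value of all 15 gilts for 9 of the 12, and high iCrit replicate 4 for the other 3. Low iCrit replicate 2 had the lowest value for 6 of the 12. The mean deviation of the 12 from their averages over all gilts was -0.597 in low iCrit replicate 2 and 0.664 in high iCrit replicate 7 on the log2 scale. The other low iCrit gilts lay between -0.345 and 0.211, and the other high iCrit gilts between -0.227 and 0.455. High iCrit replicate 8 was the lowest high iCrit gilt by this measure, and low iCrit replicates 1 and 6 were above 0, so the groups overlapped.

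Without those 3 libraries, 22 of the 27 genes were lower (51.2% of all tested genes). At an unadjusted p under 0.05, 4 of the 27 were lower (3.83% of all tested genes) and 2 higher (2.7%). Without low iCrit replicate 6 alone, 23 were lower (51.6%), 10 of them at that level (5.63%), and 0 were higher (4.44%). In bulk tissue, fewer cells of a type and less RNA per cell cannot be told apart. All 10 epithelial markers had lower mean log2 values in low iCrit gilts (median -0.155, 0 called by limma, 1 at an unadjusted p under 0.05). Their summed value was 100369 to 176989 in low iCrit and 128732 to 188411 in high iCrit gilts, lowest in low iCrit replicate 2. Of the 10 stromal fibroblast markers, 8 were higher (median 0.283, 0 called, 2 at an unadjusted p under 0.05), with sums of 201985 to 618324 in low iCrit and 206133 to 308248 in high iCrit gilts and the top in low iCrit replicate 6. Of 8 endothelial markers, 7 were higher (median 0.114, 1 at that level; sums of 25724 to 49644 in low iCrit and 22362 to 38872 in high iCrit gilts). Of 7 smooth muscle markers, 6 were lower (median -0.192; sums of 7336 to 34523 in low iCrit and 7612 to 19985 in high iCrit gilts). Of 6 erythroid markers, 5 were lower (median -0.596; sums of 906 to 3732 in low iCrit and 871 to 4963 in high iCrit gilts), and none of these last 2 lists reached an unadjusted p of 0.05 for any gene. Of 7 conceptus trophoblast markers tested, 4 were lower and 3 higher (median -0.041, 1 higher at an unadjusted p under 0.05 by limma). Their sums were 6267 to 10477 in low iCrit and 4672 to 11023 in high iCrit gilts, lowest in high iCrit replicate 7 and highest in high iCrit replicate 8. These sums mainly follow GATA2, which had 5898 to 10200 in low iCrit and 4401 to 9889 in high iCrit gilts. The other markers had far lower means, though IFNG reached 2803 in its highest high iCrit gilt. The sums are therefore no measure of conceptus content. The part of cell makeup and depth in the differences of the set was not tested, apart from a fit with estimated depth as a covariate, in which 21 of the 27 were lower (52.5% of all tested genes), 4 at an unadjusted p under 0.05 (3.53%).

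**Figure D3:**
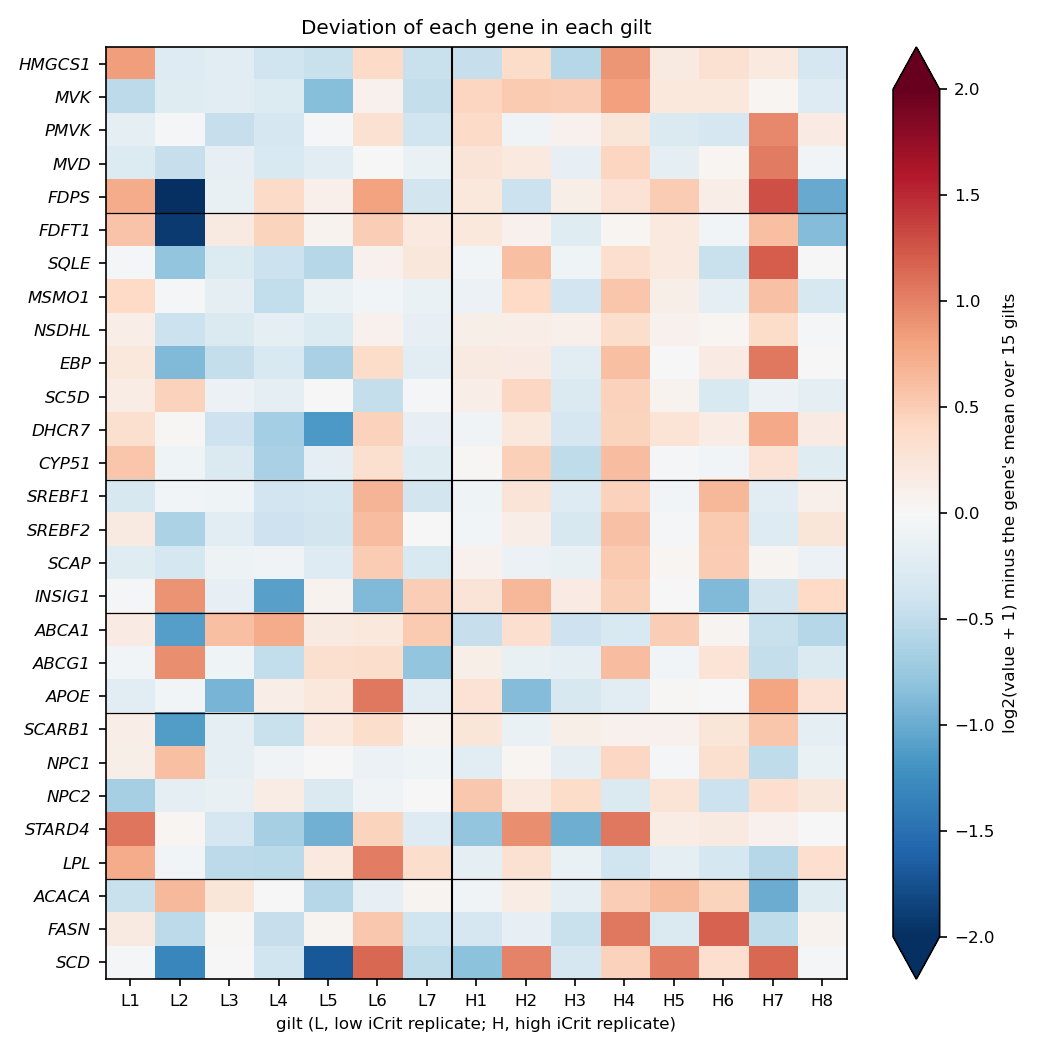
Deviation of each gene (rows, by role) in each gilt (columns; L, low iCrit replicate, H, high iCrit replicate) from the gene's mean over 15 gilts, in log2 units, blue below and red above. L2 is blue for FDPS and FDFT1, H7 is red across most synthesis enzymes, and L6, H4 and H6 share red cells for SREBF1, SREBF2 and SCAP.

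The 4 sterol-sensing genes all had lower mean log2 values in low iCrit gilts (median -0.222), and none reached an unadjusted p of 0.05. SREBF2, whose product is the main activator of cholesterol synthesis genes, ran from 6430 through 8601 to 15290 in low iCrit gilts and from 8022 through 10380 to 14930 in high iCrit gilts. SREBF1, whose product chiefly drives fatty acid synthesis genes (chromosome 12, 60733967 to 60750951, plus strand), ran from 1727 through 1803 to 3615 in low iCrit gilts and from 1880 through 2301 to 3575 in high iCrit gilts. For both genes the highest gilt of all was low iCrit replicate 6, while most other low iCrit gilts sat in the lower part of the high iCrit range or under it.

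The log2 differences were -0.22 for SREBF2 (95% interval -0.62 to 0.17), -0.23 for SREBF1 (-0.60 to 0.13) and -0.22 for SCAP (-0.52 to 0.08). Without low iCrit replicate 6, SREBF1 differed by -0.37, SREBF2 by -0.35 and SCAP by -0.33, with unadjusted p of 0.0194, 0.0528 and 0.015 by limma. Leaving out other single gilts brought these differences nearer to zero. SREBF1 was -0.16 without high iCrit replicate 6, SREBF2 -0.14 without low iCrit replicate 2 and SCAP -0.16 without high iCrit replicate 4. Their unadjusted p were 0.362, 0.459 and 0.262 by limma. SCAP ran from 2847 through 3088 to 5203 in low iCrit gilts and from 3299 through 3767 to 5228 in high iCrit gilts, again with low iCrit replicate 6 apart from its group. INSIG1, whose values ran from 936.3 through 1941 to 3727 in low iCrit and from 1088 through 2309 to 3171 in high iCrit gilts, had another order. Low iCrit replicate 2 was its highest animal, low iCrit replicate 6 was near its bottom, and the difference of -0.19 had an interval of -0.79 to 0.41.

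None of the 3 efflux genes of the set had a lower mean log2 value, but only ABCA1 was clearly away from equality. ABCG1 (0.05) and APOE (6e-04) were nearly equal between the groups and changed sign in some alternatives. Of 12 other oxysterol and efflux genes, 8 were lower. ABCA1, which loads cholesterol onto apolipoprotein A-I (chromosome 1, 246144277 to 246278492, minus strand), ran from 6838 through 16890 to 24500 in low iCrit gilts and from 9817 through 11440 to 20600 in high iCrit gilts. All low iCrit gilts but replicate 2, which was the lowest of all 15, lay above 6 of the 8 high iCrit gilts. The mean was 17750 ± 5753 in low iCrit and 13540 ± 4069 in high iCrit gilts (n = 7 and 8, SD), a log2 difference of 0.35 ± 0.25 (SE) with an adjusted p of 0.804 by limma. Without low iCrit replicate 2 it was 0.56, with an unadjusted p of 0.00683 by limma. At the other end of leaving out a single gilt, without low iCrit replicate 4, it was 0.26 (unadjusted p = 0.32 by limma).

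ABCG1, which passes sterol to high-density lipoprotein, differed by 0.05 (95% interval -0.42 to 0.52). It was highest in low iCrit replicate 2 at 11860, the animal that was lowest for ABCA1. APOE, the apolipoprotein that carries lipid between cells, ran from 1521 through 2787 to 6037 in low iCrit gilts and from 1576 through 2937 to 5015 in high iCrit gilts. Its means were 3122 ± 1416 in low iCrit and 3039 ± 1026 in high iCrit gilts (n = 7 and 8, SD), and the interval of the log2 difference was -0.54 to 0.55.

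Genes of uptake and intracellular transport went both ways. NPC2, which binds cholesterol in the lysosome and hands it to NPC1 (chromosome 7, 97730532 to 97740087, minus strand), ran from 1083 through 1561 to 1921 in low iCrit gilts and from 1277 through 2052 to 2509 in high iCrit gilts. High iCrit replicates 4 and 6 fell within the low iCrit range, and the other high iCrit gilts lay above every low iCrit gilt. The log2 difference was -0.32 ± 0.15 (SE), with an unadjusted p of 0.0482 by limma and an exact permutation p of 0.0609. NPC1, the membrane partner, differed by 0.08 (95% interval -0.24 to 0.40), and was highest in low iCrit replicate 2 at 871.1.

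SCARB1, the high-density lipoprotein receptor, differed by -0.27 (-0.66 to 0.12), which was -0.11 without low iCrit replicate 2. STARD4, which shuttles sterol through the cytosol, differed by -0.18 (-0.89 to 0.53), which was -0.0369 without low iCrit replicate 5. LPL, which releases fatty acids from lipoprotein triglyceride (chromosome 14, 4104761 to 4134964, plus strand), ran from 415 through 691 to 1221 in low iCrit gilts and from 405.7 through 527.6 to 756.1 in high iCrit gilts. Low iCrit replicates 1, 6 and 7 lay above every high iCrit gilt, and the rest shared 1 range. The log2 difference of 0.32 ± 0.23 (SE) had an adjusted p of 0.806 by limma, and it was 0.18 without low iCrit replicate 6. The adipocyte markers ADIPOQ and PLIN1 were not above the filter, and the summed adipocyte list was 73 to 161 in low iCrit and 40 to 172 in high iCrit gilts.

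The fatty acid genes were lower in mean log2 value, 3 of 3, without passing the test. SCD, which puts the double bond into stearic and palmitic acid (chromosome 14, 111461560 to 111478033, plus strand), had the largest difference of the set. It ran from 487.1 through 1195 to 3501 in low iCrit gilts and from 891.8 through 2086 to 3497 in high iCrit gilts. Low iCrit replicate 6 stood far above the other low iCrit gilts, none of which passed 1589. The fitted log2 difference was -0.74 ± 0.38 (SE; 95% interval -1.55 to 0.06), with an unadjusted p of 0.0684 and an adjusted p of 0.723 by limma. Without low iCrit replicate 6 it was -1.003, with an unadjusted p of 0.00996 by limma. At the other end of leaving out a single gilt, without low iCrit replicate 5, it was -0.53 (unadjusted p = 0.166 by limma).

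FASN, the fatty acid synthase, ran from 3348 through 4903 to 7027 in low iCrit gilts and from 3405 through 4126 to 10990 in high iCrit gilts. High iCrit replicates 4 and 6 held its 2 highest values, 10045 and 10988, and the difference of -0.16 had an interval of -0.72 to 0.40. ACACA, which makes malonyl units for it, differed by -0.06 (-0.54 to 0.42).

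Many pairs of genes of the set varied together from gilt to gilt. Over 378 pairs of the 27 genes and CYP51, the median Pearson r of log2(value + 1) was 0.226, against -0.002 over the 141430971 pairs of all tested genes. An r above 0.7 was reached by 8.2% of the 378 pairs and by 1.38% of all pairs, and an r below -0.7 by 0 of the 378 and 1.1% of all pairs. Among the 13 synthesis enzymes, CYP51 included, the median was 0.493 and 16.7% of 78 pairs lay above 0.7. Permutation over the 15 gilts (100000 draws, two-sided, Benjamini-Hochberg over the 378 pairs) called 38 pairs, and r was positive in all 38. The pairs share libraries and scaling. After quantile normalization 32 pairs were called, and by Spearman's rank correlation 16.

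**Figure D4:**
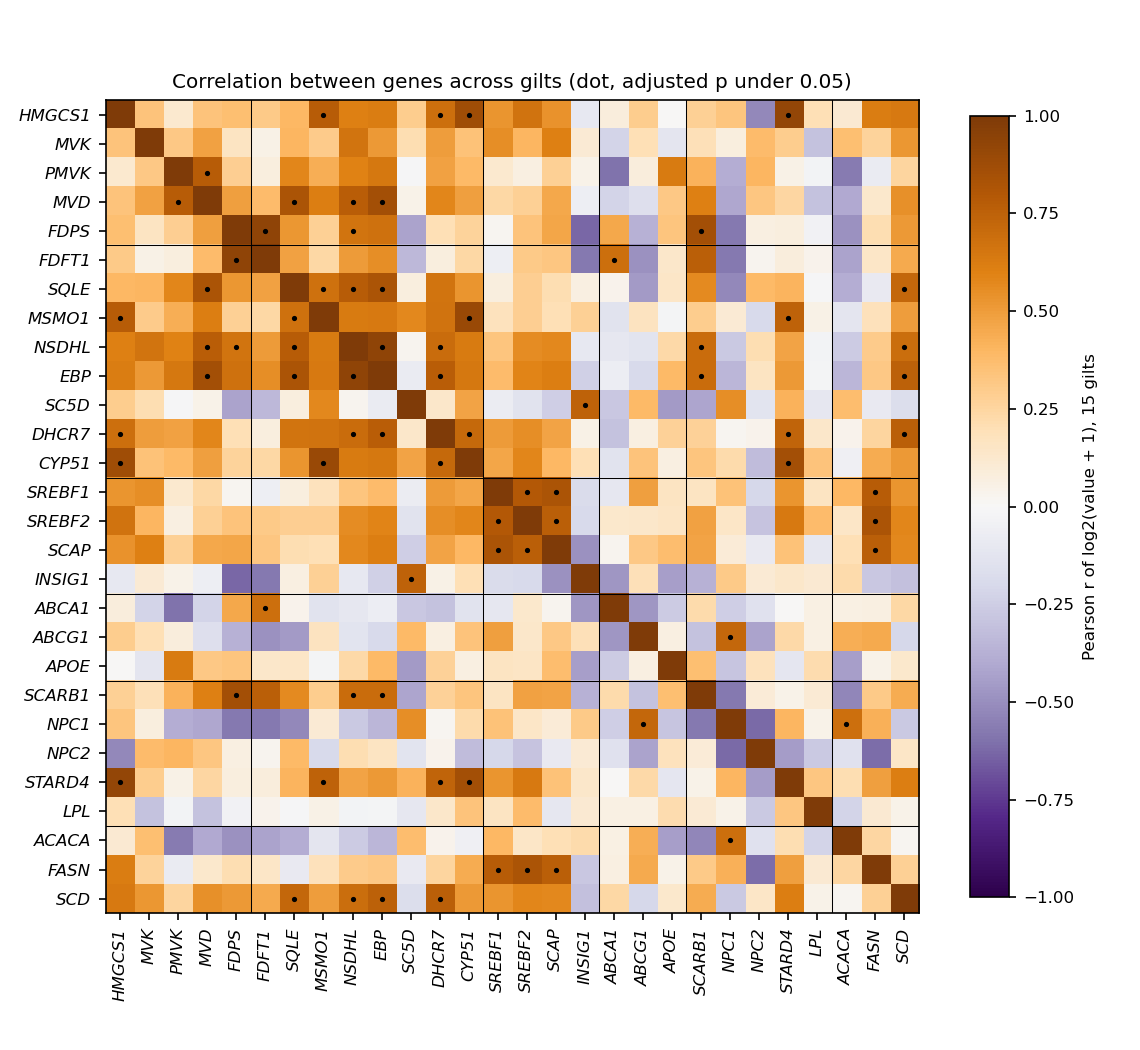
Pearson r of log2(value + 1) over 15 gilts between the 27 genes and CYP51, ordered by role, orange for positive and purple for negative r. Dots mark the 38 pairs with an adjusted permutation p under 0.05, and they gather among the synthesis enzymes, among SREBF1, SREBF2, SCAP and FASN, and around STARD4.

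The pairs named next were chosen after their values were seen. NSDHL and EBP had the highest r of the 378 (r = 0.934, Spearman's rho = 0.889, adjusted permutation p = 0.00126 and 0.00378). The r was 0.977 within the low iCrit and 0.842 within the high iCrit gilts, and 0.899 without the 2 gilts farthest from the NSDHL median. For every pair below, the 2 farthest gilts are those of a single gene. That gene is the earlier in the role order of the figures, with CYP51 put last. Extreme gilts of the other gene stayed in. With MVD, EBP had an r of 0.856 (rho = 0.757, adjusted permutation p = 0.00315 and 0.0406), which was 0.653 within low iCrit and 0.969 within high iCrit gilts. Without the 2 farthest gilts it was 0.704. EBP and SQLE had an r of 0.827 (rho = 0.729, adjusted permutation p = 0.0084 and 0.0573), with 0.816 within low iCrit and 0.761 within high iCrit gilts and 0.596 without the 2 farthest gilts.

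Other called pairs linked HMGCS1, MSMO1, CYP51 and the carrier STARD4. HMGCS1 and STARD4 had an r of 0.920 (rho = 0.957, above that of NSDHL with EBP, adjusted permutation p = 0.00126 and 0.00378), with 0.925 within low iCrit gilts, 0.913 within high iCrit gilts and 0.865 without the 2 farthest gilts. MSMO1 and CYP51, which both take part in removing the methyl groups of lanosterol, had an r of 0.895 (rho = 0.879, adjusted permutation p = 0.00283 and 0.0063), with 0.913 within low iCrit gilts, 0.912 within high iCrit gilts and 0.904 without the 2 farthest gilts. Both relations had an r above 0.9 without the 3 libraries left out together, 0.956 and 0.929. The order of the gilts was not that of EBP. High iCrit replicate 4 and low iCrit replicate 1 led HMGCS1 and STARD4, and high iCrit replicate 7 was in mid-range.

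FDPS and FDFT1, which act in sequence, were also called together (r = 0.931, rho = 0.789, adjusted permutation p = 0.00126 and 0.0331). The r was 0.974 within low iCrit and 0.872 within high iCrit gilts, but 0.554 without the 3 libraries left out together and 0.781 without the 2 farthest gilts. The lowest animal for both genes was low iCrit replicate 2, the next lowest high iCrit replicate 8 and the highest high iCrit replicate 7, the same 3 animals. FDPS with SCARB1 had an r of 0.854 (rho = 0.657, adjusted permutation p = 0.0169 and 0.0947), which was 0.848 within low iCrit gilts and 0.914 within high iCrit gilts. It was 0.45 without the 2 farthest gilts. FDFT1 with ABCA1 had an r of 0.68 (rho = 0.404, adjusted permutation p = 0.0461 and 0.387) that was 0.895 within low iCrit and 0.284 within high iCrit gilts and 0.194 without the 2 farthest.

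**Figure D5:**
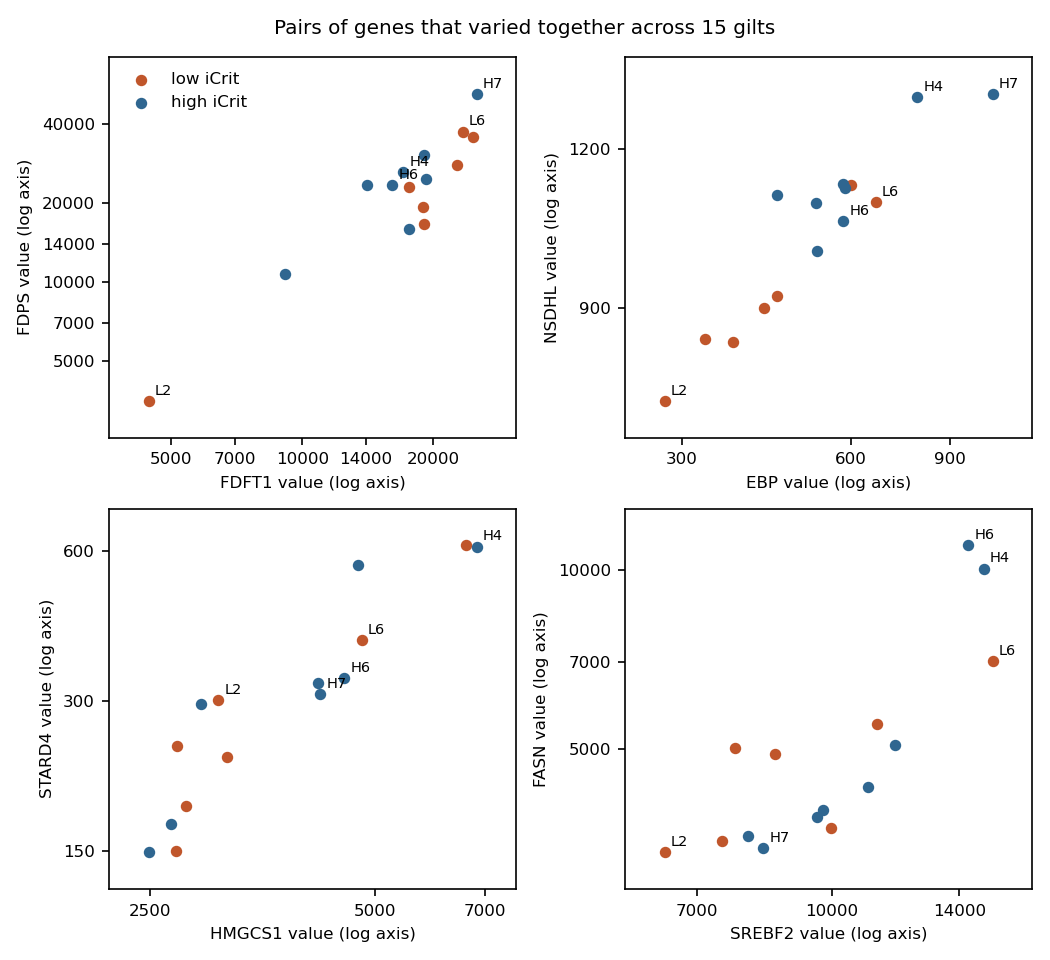
Normalized values of 4 pairs of genes in each gilt, both axes logarithmic, low iCrit in orange and high iCrit in blue, with 5 animals labelled (L, low iCrit replicate; H, high iCrit replicate). The FDPS and FDFT1 panel shows L2 far from the rest, NSDHL with EBP and STARD4 with HMGCS1 run along the whole range, and FASN with SREBF2 is led by L6, H4 and H6.

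The regulators paired with each other. SREBF1 and SREBF2 had an r of 0.794 (rho = 0.679, adjusted permutation p = 0.0142 and 0.0876), with 0.628 within low iCrit and 0.952 within high iCrit gilts and 0.643 without the 2 farthest gilts. SREBF2 and FASN had an r of 0.823 (rho = 0.821, adjusted permutation p = 0.00378 and 0.0227), with 0.804 within low iCrit and 0.937 within high iCrit gilts and 0.741 without the 2 farthest gilts. SREBF1 and SCAP had an r of 0.824 (rho = 0.582, adjusted permutation p = 0.0167 and 0.162), with 0.858 within low iCrit and 0.735 within high iCrit gilts and 0.629 without the 2 farthest gilts. Low iCrit replicate 6, high iCrit replicate 4 and high iCrit replicate 6 were the 3 highest animals for SREBF1, SREBF2, SCAP and FASN. Among the other 12 gilts the r was 0.397 for SREBF1 with SREBF2, 0.567 for SREBF2 with FASN and 0.227 for SREBF1 with SCAP.

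With all 15 gilts, no pair of SREBF1, SREBF2 or SCAP with a synthesis enzyme was called. Without the 3 libraries left out together, SREBF2 was called with EBP (r = 0.857, adjusted permutation p = 0.0185) and DHCR7 (r = 0.834, adjusted permutation p = 0.0214), and without the 2 farthest gilts with EBP (r = 0.851, adjusted permutation p = 0.0212). HMGCS1, a known target of the SREBF2 product, had an r with SREBF2 of 0.667 (rho = 0.657, adjusted permutation p = 0.0646 and 0.0947). High iCrit replicate 7, the highest animal for 9 enzymes, had an SREBF2 value of 8341, in the lower part of the 15. INSIG1, itself a known SREBP target in human and mouse cells, was paired with SC5D (r = 0.746, rho = 0.689, adjusted permutation p = 0.025 and 0.083), with 0.833 within low iCrit and 0.668 within high iCrit gilts and 0.664 without the 2 farthest gilts. With FDPS its r was -0.626 (rho = -0.707, adjusted permutation p = 0.0828 by Pearson), the lowest r of the 378 pairs.

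DHCR7, one of the final enzymes of the pathway, was called with several genes, among them EBP (r = 0.773, rho = 0.843, adjusted permutation p = 0.0193 and 0.0123) and SCD (r = 0.759, rho = 0.771, adjusted permutation p = 0.0193 and 0.0331). With EBP the r was 0.625 within low iCrit gilts, 0.876 within high iCrit gilts and 0.901 without the 2 farthest gilts. With SCD it was 0.678 within low iCrit gilts, 0.76 within high iCrit gilts and 0.658 without the 2 farthest gilts. ABCG1 and NPC1, both highest in low iCrit replicate 2, had an r of 0.726 (rho = 0.561, adjusted permutation p = 0.0312 and 0.174), which was 0.581 without that animal and 0.661 without the 2 farthest gilts. MVK, the gene with the smallest group p, was in none of the 38 pairs. Its highest r was 0.663, with NSDHL (adjusted permutation p = 0.0653).

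Within the high iCrit gilts alone 4 pairs were called by the exact permutation, and within the low iCrit gilts alone 0. Without the 3 libraries left out together 16 were called, and 7 without the 2 gilts farthest from the median of the earlier gene of each pair. Of the pairs named above, NSDHL with EBP (0.00567), EBP with DHCR7 (0.00567), HMGCS1 with STARD4 (0.00756) and MSMO1 with CYP51 (0.00756) still had an adjusted permutation p under 0.05 without the 2 farthest gilts. The other named pairs called with all gilts did not pass without those 2. Of these, r fell below 0.5 for FDPS with SCARB1 and for FDFT1 with ABCA1. For the rest r was at least 0.596. The part of the smaller number of gilts was not tested for any of them.

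The rest of the pathway was read from lists of other genes. Of 10 other sterol synthesis genes tested, 8 were lower in low iCrit gilts and 2 higher (median -0.119, 0 called by limma). ACAT2, which makes acetoacetyl units for HMGCS1, was the one lower at an unadjusted p under 0.05, with 988.2 ± 428 in low iCrit and 1484 ± 471 in high iCrit gilts (n = 7 and 8, SD), a log2 difference of -0.62 ± 0.25 (SE). Of 11 esterification and droplet genes 7 were lower (median -0.085), among them PNPLA2, the lipase of lipid droplets, at -0.36 ± 0.13 (SE). Of 15 genes of fatty acid uptake and activation 9 were lower (median -0.142), with ACSL1, which activates fatty acids, at -0.71 ± 0.30 (SE). The adjusted p of these 3 genes by limma was 0.672, 0.672 and 0.674.

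The other lists held no gene at an unadjusted p under 0.05 by limma. Of 13 further fatty acid synthesis genes 9 were lower (median -0.095), of 12 oxysterol and efflux genes 8 (median -0.081), of 10 other sensing genes 6 (median -0.047) and of 13 uptake and transport genes 6 (median 0.055). The macrophage list, whose cells also use ABCA1, APOE and LPL, was lower in 5 of 12 (median 0.017), with sums of 7293 to 15906 in low iCrit and 6343 to 16671 in high iCrit gilts.

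The small-RNA libraries of the same gilts held 9 of 13 miRNAs known in human or mouse to act on ABCA1, NPC1, SCARB1 or SREBF2. They gave 13 entries, and the other 4 (miR-33a, miR-33b, miR-223 and miR-758) were not analysed here. limma called 0 of the 13, with 0% called among 302 miRNA entries tested. None of the 13 was lower at an unadjusted p under 0.05, against 3.64% of all entries. miR-148a-3p, which acts on ABCA1 in human cells, was the only one of the 13 under that level, and it was higher, where 3.31% of all entries were higher at that level. Its value was 1581000 ± 362900 in low iCrit and 1246000 ± 261400 in high iCrit gilts (n = 7 and 8, SD), a log2 difference of 0.34 ± 0.15 (SE) with an unadjusted p of 0.0366 and an adjusted p of 0.518 by limma.

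Values of the other listed miRNAs gave no call either. miR-27b-3p had 447600 ± 69390 in low iCrit and 556500 ± 210500 in high iCrit gilts (n = 7 and 8, SD), a log2 difference of -0.26. The 2 entries of miR-128, which may share reads, differed by -0.21 and -0.19, with unadjusted p of 0.0539 and 0.0812 by limma. The largest differences of the 13 were those of miR-144 at -0.70 and miR-27b-5p at -0.46, with unadjusted p of 0.0745 and 0.0523 by limma. miR-27a differed by -0.11, miR-96-5p by -0.24, miR-122 by -0.17 and miR-185 by -0.09. miR-148a-5p differed by 0.14, miR-148b-5p by 0.03 and miR-148b-3p by 0.02.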

How the data were processed

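The authors deposited normalized values, treated here as signal, for poly(A) mRNA and small RNA from 15 endometria. How they were scaled, with which aligner and on which build is not stated in the labels or files. Every gene printed with a position has the coordinates it has in the RefSeq table of Sscrofa11.1. Groups came from the feeding label, and replicate numbers only name a gilt.

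Genes above 1 in at least 7 libraries (16819 of 28224) were tested on log2(value + 1), a scale that understates changes of low genes, with limma 3.58.1 (R 4.3.3), using an intensity trend and no covariate. Scripts were tested on simulated data. Between 91.6% and 94.0% of low mRNA values were whole multiples (within 0.05 steps) of a library-specific step, from which depth was estimated. Read counts were not rebuilt, so no count model was used. The p-values treat the gilts as independent, which could not be checked because nothing in the labels gives litters. Correlations used Python 3.11.15 with numpy 2.4.6.

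The members and lists were chosen with earlier results of these data known. Every member is described, with lowest, median and highest values for the smallest p of each role and for the main regulators. Of the other pathway lists, genes at an unadjusted p under 0.05 are named, and the values of MVD, EBP, SQLE and FDPS were added after they were seen. Alternatives changed the pseudocount, filter, scaling, weights, depth term and libraries. Promoter, protein and miRNA sequences were not used here.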

Additional observations from a re-analysis of the deposited data

Results flagged for a closer look

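Of 92 groups of gilts screened, 14 held a highest or lowest value set apart from the others. Its gap to the nearest value, as a share of the group's range, passed a threshold that chance passes in about 1 of 20 groups of normally distributed values. The screen used values on the linear scale, where that rate was not tested, so 14 of 92 cannot be set against it. All but that of FDFT1 were high values. The groups were the low and the high iCrit gilts for 28 genes, 3 other pathway genes, 13 miRNA entries and 2 depth estimates.

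Low iCrit replicate 6 was high for SREBF1 (3615, others 1727 to 2159, gap 0.771), SCAP (5203, others 2847 to 3484, gap 0.729), SCD (3501, others 487.1 to 1589, gap 0.634) and APOE (6037, others 1521 to 3349, gap 0.595). The same gilt was high for miR-148a-5p (5190, others 1909 to 3301, gap 0.576) and had the highest summed stromal fibroblast markers of all 15, 618324. Its summed smooth muscle (34523) and endothelial (49644) markers were also the highest. Low iCrit replicate 2 was low for FDFT1 (4436, others 17590 to 24680, gap 0.649) and high for NPC1 (871.1, others 503.9 to 622.5, gap 0.677).

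High iCrit replicate 7 was high for MVD (2643, others 1135 to 1729, gap 0.606) and PMVK (2518, others 1023 to 1692, gap 0.553), and its depth was the lowest of the 15. Among the miRNAs, low iCrit replicate 4 was high for miR-122 (596.1, others 257.7 to 350, gap 0.727) and both miR-128 entries (24860 and 33210, gaps 0.614 and 0.640). High iCrit replicate 6 was high for miR-27b-3p (1031000, others 367700 to 647700, gap 0.578) and miR-27b-5p (562.8, others 176.8 to 330.9, gap 0.601). The part of cell makeup or library quality in these values was not tested.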

How the results depend on the processing

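Calls stayed at 0 of 27 in all 23 alternatives, and MVK, MVD and NSDHL were lower at an unadjusted limma p under 0.05 in 24 of 24 settings, EBP in 20, SQLE in 13 and NPC2 in 10. The count lower at that level ran from 3 to 10 as each gilt was left out (3 without low iCrit replicate 2 or 5, 10 without low iCrit replicate 6), while the share of all tested genes was 4.03%, 3.72% and 5.63% there, against 4.43%. The count higher ran from 0 to 1, and was 1 with library weights (5.25% of all tested genes) and 2 without the 3 libraries left out together (2.7%). Of 28 genes, CYP51 included, 20 had 1 sign in every alternative, and 33 of 672 values had the other sign. The 672 include the changes of filter and the exact permutation, which leave a gene's difference as it is and could not change its sign. The values of the other sign are given next. The 33 were FDPS at 0.11 without the 3 libraries, FDFT1 at -0.0334 and SC5D at 0.0274 with the depth covariate, ABCG1 at -0.14 and APOE at -0.11 with weights, and ABCG1 at -0.22 and NPC1 at -0.11 without the 3 libraries. The rest came from leaving out 1 gilt, with ranges of -0.46 to 0.11 for FDPS, -0.11 to 0.33 for FDFT1, -0.14 to 0.0156 for SC5D, -0.10 to 0.18 for ABCG1, -0.18 to 0.16 for APOE, -0.0171 to 0.14 for NPC1, -0.21 to 0.0295 for ACACA, and -0.26 to 0.0032 for FASN. The miRNA entries that changed sign ran from -0.0353 to 0.0684 (miR-148b-5p) and from -0.0392 to 0.0623 (miR-148b-3p). The cause was not tested. Leaving out 1 gilt moved 20 of 28 differences by over 1.5 times, those of MVK, MVD, SQLE, NSDHL, EBP, SCAP, NPC2 and SCD excepted.

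The 38 called pairs became 0 in low and 4 in high iCrit gilts alone, 16 by Spearman's correlation, 16 without the 3 libraries, 7 without the 2 farthest gilts and 11 without the 3 gilts highest in SREBF1, the last chosen after seeing the data. Each of these but Spearman's used fewer gilts. In low iCrit gilts alone the number of possible pairings was too small for a lone pair to be called. Several pairs together at the smallest possible p could have been called, and none was. NSDHL with EBP, at r = 0.977 in these gilts, had an exact permutation p of 0.00119 and an adjusted p of 0.291. None of 17 named pairs changed sign. Low and high iCrit gilts could not be paired, because the animal numbers are unique to each gilt. The mRNA and miRNA values of the same gilt were not set against each other. With 7 and 8 gilts, intervals of the genes span from 0.44 to 1.84 log2 units.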
